A study of Mus musculus with 12 samples.

Results

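Steroid hormones are made from cholesterol. Star carries cholesterol into the mitochondrion, where Cyp11a1 cuts its side chain to give pregnenolone, and Hsd3b1 and Cyp17a1 take pregnenolone on towards progestogens and androgens. Adrenal cortex and gonad arise from a shared primordium that expresses the nuclear receptor gene Nr5a1. Its product (also called SF-1) switches on steroidogenic genes in both organs. The adrenal cortex responds to the pituitary hormone ACTH.

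7 genes of this pathway, or typical of adrenal-like cells, were followed on expression arrays of mouse embryonic gonads: Scarb1, Star, Cyp11a1, Hsd3b1, Cyp17a1, Mc2r and Akr1cl. They were taken by name, with every probe set that the array annotation assigns to 1 of them alone, which gave 14 probe sets for 7 of the 18193 genes that have such a probe set. None of the 14 was also assigned to another gene. The arrays held gonads of E11.5 embryos, the stage around which testis and ovary development begin to part, bred from parents heterozygous for a Cbx2 knockout. Cbx2 encodes a Polycomb group protein, a subunit of a complex that keeps developmental genes repressed. The 4 groups were XY wild type (WT XY), XX wild type (WT XX), XY Cbx2 knockout (KO XY) and XX Cbx2 knockout (KO XX), with 3 arrays each and no agent given to any of them. Each array held the pooled, laser-captured gonadal cells of 2 or 3 embryos, so errors describe the spread between pools. The sources used here give neither the strain nor the deleted stretch of Cbx2.

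Genotype follows the titles and genotype field, since the source description of the wild-type samples names the KO XX group instead. Levels of Xist and of the Y-linked gene Eif2s3y matched the labelled sex on all 12 arrays. The brighter Cbx2 probe set read 0.63 ± 0.09 higher in KO (log2 difference ± standard error, SE, both sexes; adjusted p = 8.51e-05), and since it is not known whether it lies in the deleted stretch, it does not check the genotype. WT XX replicate 1 stood apart: its mean correlation over the probe sets assigned to a single gene was 0.987 with the other WT XX arrays and 0.995 with the WT XY arrays. The member results that its removal changed most are given with and without it, and counts over gene lists are given with all 12 arrays. The difference between 3' and 5' Gapdh control probe sets can reflect RNA integrity and also the 2-cycle amplification of the RNA, which cannot be told apart here. It was 4.91 ± 0.12 in KO XY and 4.13 ± 0.38 in WT XY (SD, n = 3, exact permutation p = 0.1, two-sided, the smallest that 3 against 3 allows). In XX it was 4.05 ± 0.22 in KO and 4.30 ± 0.45 in WT (exact permutation p = 0.4). KO XY and KO XX differed in this measure by 0.87 without overlap (exact permutation p = 0.1), so within KO it goes along with sex.

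In the knockout gonads Akr1cl and Cyp11a1 fell steeply in both sexes, and Mc2r, the ACTH receptor gene, rose. Hsd3b1 fell modestly in both sexes and Cyp17a1 in XX, and these calls were lost when certain single arrays were left out. Averaged over both sexes, Hsd3b1 and Cyp17a1 fell. Star and Scarb1 differed little on their brightest probe sets, though a dimmer probe set of each fell. A probe set passed at an adjusted p under 0.05 (limma, Benjamini-Hochberg over all 34945 single-gene probe sets), and a gene was counted by its brightest probe set, that of the highest mean level. In XY, 1 of the 7 genes rose, 3 fell and 3 did not pass, where 12.4% of all genes passed (6.1% higher and 6.33% lower). In XX, 1 rose, 4 fell and 2 did not pass, against 12.6% of all genes (7.67% higher and 4.96% lower). The number passing in XY was 2, Cyp11a1 and Akr1cl, with the Gapdh measure as a covariate, and in XX it was 3 without KO XX replicate 1. Averaged over both sexes, the counts were again 1, 4 and 2, against 22.6% of all genes (12.9% higher and 9.72% lower). The median log2 difference of the 7 genes was -0.30 in XY and -0.45 in XX, beside 0.01 and -0.02 over all genes. The genes had been chosen with results of these arrays known, so these counts describe the members and are no test of the pathway. In bulk captures, fewer cells of a type and less RNA per cell cannot be told apart.

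**Figure D1:**
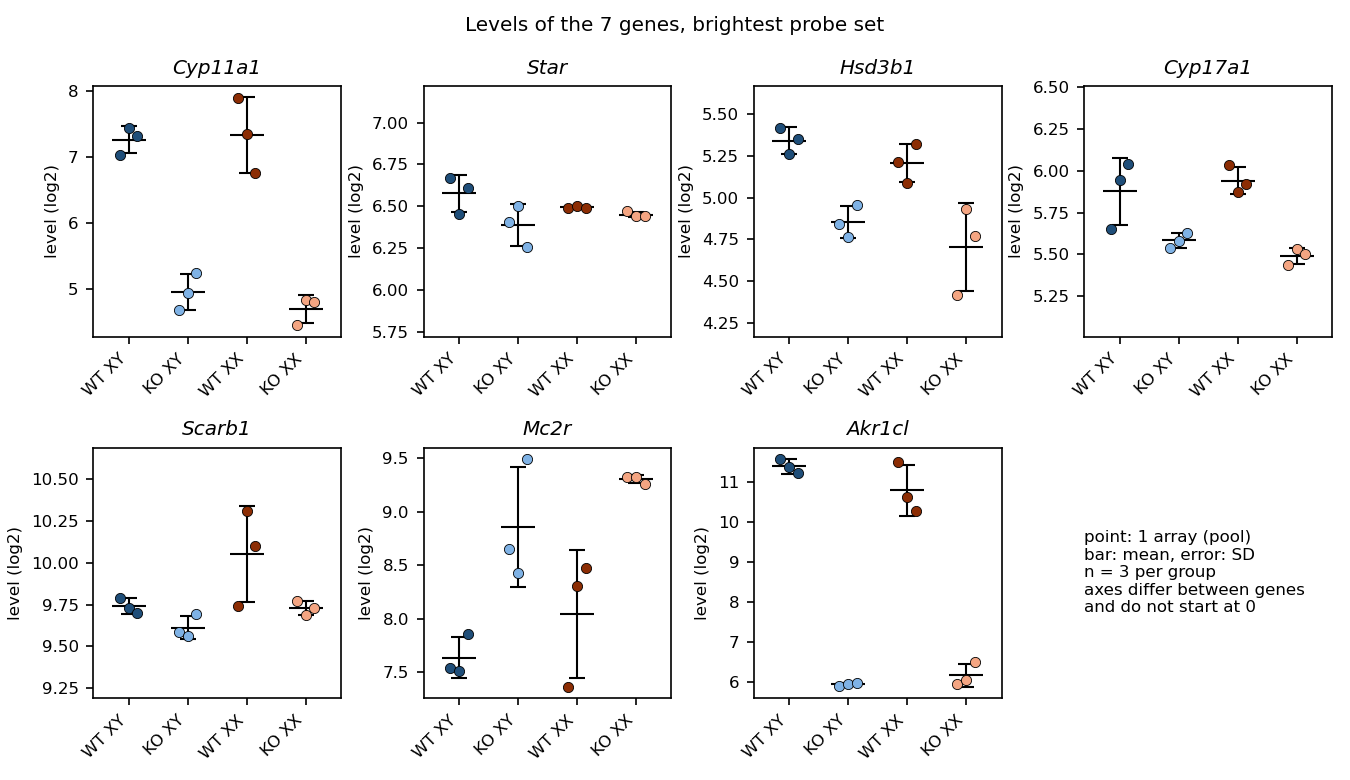
Log2 level on each of the 12 arrays for the brightest probe set of each gene; points are arrays, horizontal bars the group mean and error bars the SD (n = 3 pools), and the vertical axes differ between genes and do not start at 0. Akr1cl lies between 10.27 and 11.59 on the WT arrays and between 5.92 and 6.5 on the KO arrays, and Mc2r is the only gene of the 7 with both KO means above both WT means.

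For the members with a matched promoter window, Akr1cl, Cyp11a1 and Hsd3b1, the 250 bases before each RefSeq transcription start are given (mouse build GRCm38.p6, 5' to 3' on the gene's strand). They lie at chr1:65032760-65033009 minus for Akr1cl, chr9:57997774-57998023 plus and chr9:58014702-58014951 plus for the 2 annotated starts of Cyp11a1, and chr3:98859795-98860044 minus for Hsd3b1. Windows were matched for 3 of the 7 genes. Entries on the chromosome of Mc2r were left out of the matching, so the lack of an Mc2r window does not mean that it has no entry. Capitals mark the motif AGGTCA (the half-site within the sequence that Nr5a1 recognises) or the motif GATAA, on either strand. GATAA is a form of the sequence that GATA factors recognise, and other forms, such as GATAG, were left unmarked and uncounted.
Akr1cl: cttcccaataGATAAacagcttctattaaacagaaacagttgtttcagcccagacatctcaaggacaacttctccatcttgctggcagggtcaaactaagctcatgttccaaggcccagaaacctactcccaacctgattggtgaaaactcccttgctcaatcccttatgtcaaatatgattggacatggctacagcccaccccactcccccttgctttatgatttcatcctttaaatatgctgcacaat
Cyp11a1 first start: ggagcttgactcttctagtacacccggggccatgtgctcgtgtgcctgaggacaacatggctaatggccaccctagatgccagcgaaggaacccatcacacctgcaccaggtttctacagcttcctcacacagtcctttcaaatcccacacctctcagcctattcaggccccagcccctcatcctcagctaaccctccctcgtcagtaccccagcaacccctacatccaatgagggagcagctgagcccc
Cyp11a1 second start: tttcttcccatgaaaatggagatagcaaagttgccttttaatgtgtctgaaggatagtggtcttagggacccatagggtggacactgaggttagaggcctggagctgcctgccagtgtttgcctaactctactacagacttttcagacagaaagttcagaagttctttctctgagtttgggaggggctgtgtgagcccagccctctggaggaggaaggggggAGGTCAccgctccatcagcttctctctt
Hsd3b1: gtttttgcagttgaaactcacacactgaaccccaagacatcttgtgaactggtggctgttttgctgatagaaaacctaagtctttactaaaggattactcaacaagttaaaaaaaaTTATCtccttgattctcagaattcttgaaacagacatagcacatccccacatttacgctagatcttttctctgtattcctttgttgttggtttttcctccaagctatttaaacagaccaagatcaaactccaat
The Akr1cl window held a GATAA match at base -240 from the start, and the Hsd3b1 window a match on the other strand at base -134. The second Cyp11a1 start had an AGGTCA match at base -28, and the first start had neither motif. These letters are common: of 32851 RefSeq promoter windows of the same length, 22.6% held GATAA, 14% held AGGTCA and 4.08% held the longer AAGGTCA, which was in none of the 4 windows. A match is a description of the sequence and not a measured binding site.

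Cholesterol supply and entry were followed through Scarb1 and Star. Scarb1 encodes the receptor that takes up cholesterol esters from high-density lipoprotein. Its 3 probe sets did not move alike. On 1416050_a_at the 3 WT XY arrays read 8.30, 8.46 and 8.59 and the KO XY arrays 7.88, 7.81 and 8.01, while the WT XX arrays read 8.39, 8.15 and 8.24 and the KO XX arrays 7.96, 7.74 and 8.0. Every KO array thus lay below every WT array. The difference was -0.55 ± 0.12 in XY (adjusted p = 0.00829), which passed, and -0.36 ± 0.12 in XX (adjusted p = 0.0715), which did not. The XY call was lost when WT XY replicate 3 was left out (-0.48 ± 0.14, adjusted p = 0.0512), and likewise under the Gapdh measure as a covariate (-0.48 ± 0.18, adjusted p = 0.248).

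The 2 brighter Scarb1 probe sets carry the suffix x, by which the array's maker marks probes that may bind other transcripts. On 1455820_x_at the WT XY arrays read 9.79, 9.73 and 9.70, the KO XY arrays 9.58, 9.56 and 9.69, the WT XX arrays 9.74, 10.31 and 10.10 and the KO XX arrays 9.77, 9.69 and 9.73. WT XX replicates 2 and 3 stood above all other arrays, and replicate 1 read like the other groups. Differences were -0.13 ± 0.13 in XY (adjusted p = 0.638) and -0.32 ± 0.13 in XX (adjusted p = 0.140), neither of which passed. Without WT XX replicate 1 the XX difference became -0.48 ± 0.11 (adjusted p = 0.0159), and that over both sexes went from -0.22 ± 0.09 (adjusted p = 0.105) to -0.30 ± 0.08 (adjusted p = 0.0116). Probe set 1437378_x_at gave -0.01 ± 0.14 in XY (adjusted p = 0.990) and -0.35 ± 0.14 in XX (adjusted p = 0.138), the latter -0.49 ± 0.14 without WT XX replicate 1 (adjusted p = 0.0340). Repeating the quantile normalization over the analysed probe sets brought all 3 Scarb1 probe sets past the threshold in XX, with adjusted p of 0.0178, 0.0430 and 0.0351.

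Star encodes the carrier that brings cholesterol to the inner mitochondrial membrane. On its brightest probe set, 1418729_at, the arrays read 6.67, 6.45 and 6.61 in WT XY, 6.41, 6.5 and 6.25 in KO XY, 6.49, 6.5 and 6.49 in WT XX, and 6.47, 6.44 and 6.44 in KO XX. All 12 arrays lay within 0.41 of each other, and KO and WT overlapped in XY. The KO difference was -0.19 ± 0.10 in XY (95% interval -0.41 to 0.03, adjusted p = 0.306) and -0.04 ± 0.10 in XX (-0.27 to 0.18, adjusted p = 0.839).

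A dimmer Star probe set, 1449201_at, read 5.79, 5.36 and 5.56 in WT XY and 4.79, 4.54 and 4.91 in KO XY, with 5.63, 5.24 and 5.24 in WT XX and 4.98, 4.80 and 5.23 in KO XX. Every KO array lay below every WT array, by a narrow margin in XX. It fell in XY by 0.83 ± 0.16 on the log2 scale (adjusted p = 0.00331) but not past the threshold in XX (-0.37 ± 0.16, adjusted p = 0.159; -0.24 ± 0.16, adjusted p = 0.396, without WT XX replicate 1). With the Gapdh measure as a covariate the differences were alike in size, and the one in XY did not pass (-0.49 ± 0.20, adjusted p = 0.330) while the one in XX did (-0.49 ± 0.15, adjusted p = 0.0409). The third probe set, 1418728_at, ranged from 6.06 to 7.04 over the 12 arrays and passed in neither sex (-0.38 ± 0.19 in XY, adjusted p = 0.236, and -0.12 ± 0.19 in XX, adjusted p = 0.732). Taken as the mean of its 3 probe sets, Star passed in XY (-0.47 ± 0.12, adjusted p = 0.0219), so its call depends on the probe set.

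The first enzyme of the pathway, encoded by Cyp11a1, was one of the 2 genes that fell most. On 1448804_at the WT XY arrays read 7.03, 7.44 and 7.31 and the KO XY arrays 4.69, 4.95 and 5.24. The WT XX arrays read 7.89, 7.35 and 6.75 and the KO XX arrays 4.45, 4.83 and 4.81. The lowest WT array, WT XX replicate 3, still lay well above the highest KO array, KO XY replicate 3. Cyp11a1 was 4.94-fold lower in KO XY (-2.30 ± 0.23, adjusted p = 1.5e-05) and 6.22-fold lower in KO XX (-2.64 ± 0.23, adjusted p = 5.57e-06; -2.36 ± 0.20 without WT XX replicate 1). The KO arrays, at 4.45 to 5.24, lay below the medians of the arrays over all probe sets (5.88 to 5.94) and had no detection call, so the folds depend on dim KO values. The call held in both sexes under every alternative that tested the probe set, the Gapdh covariate included (-1.88 ± 0.31 in XY, adjusted p = 0.00311).

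The second Cyp11a1 probe set, 1439947_at, showed a smaller change. It read 5.54, 6.08 and 5.88 in WT XY and 4.87, 5.26 and 4.52 in KO XY, and 5.41, 5.47 and 5.44 in WT XX and 4.83, 5.04 and 4.88 in KO XX. Again no KO array reached a WT array, and the difference was -0.95 ± 0.17 in XY (adjusted p = 0.00209) and -0.52 ± 0.17 in XX (adjusted p = 0.0678). The XX difference passed without KO XY replicate 2 or replicate 3 (adjusted p = 0.0340 and 0.0404), arrays that enter it only through the shared estimate of the spread. Probe set 1457604_x_at stayed between 4.59 and 5.04 on all arrays and did not pass in XY (-0.12 ± 0.11, adjusted p = 0.568) or XX (-0.11 ± 0.11, adjusted p = 0.570).

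Hsd3b1 encodes the dehydrogenase that turns pregnenolone into progesterone. Its probe set, 1448453_at, read 5.42, 5.26 and 5.35 in WT XY, 4.84, 4.76 and 4.96 in KO XY, 5.21, 5.09 and 5.32 in WT XX, and 4.42, 4.93 and 4.77 in KO XX. The groups did not overlap in either sex, although all these values lay below the medians of the arrays, and no detection call was used here. Hsd3b1 was 1.40-fold lower in KO XY (-0.49 ± 0.13, adjusted p = 0.0288) and 1.42-fold lower in KO XX (-0.50 ± 0.13, adjusted p = 0.0240; 0.0496 without WT XX replicate 1). Over both sexes it fell by 0.49 ± 0.09 on the log2 scale (adjusted p = 0.00155).

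The calls for Hsd3b1 within a sex rested on few arrays. In XY the adjusted p was 0.0798 without KO XY replicate 1, 0.105 without KO XY replicate 2, and 0.109, 0.0534 and 0.0867 without WT XY replicates 1, 2 and 3, and it was 0.408 with the Gapdh covariate. In XX it was 0.101 without KO XX replicate 1, the lowest array, and 0.0775 without WT XX replicate 3. The call over both sexes held under every alternative in which the probe set was tested. The related genes Hsd3b2 and Hsd3b3, its neighbours on the chromosome, did not pass over both sexes (-0.16 ± 0.08, adjusted p = 0.193, and 0.02 ± 0.09, adjusted p = 0.938), and close sequence relatives may share signal on an array.

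Cyp17a1 encodes the enzyme that opens the way to androgens. On 1417017_at the arrays read 5.65, 5.94 and 6.04 in WT XY, 5.54, 5.58 and 5.63 in KO XY, 6.03, 5.87 and 5.92 in WT XX, and 5.44, 5.53 and 5.50 in KO XX. All 6 KO arrays lay below all 6 WT arrays, but WT XY replicate 1 came within 0.1 of the highest KO array. The KO difference was -0.30 ± 0.11 in XY (adjusted p = 0.124), which did not pass, and -0.45 ± 0.11 in XX (adjusted p = 0.0196), a 1.37-fold fall. Over both sexes Cyp17a1 fell by 0.37 ± 0.08 on the log2 scale (adjusted p = 0.00411).

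That XX call for Cyp17a1 was lost without WT XX replicate 1 (-0.41 ± 0.13, adjusted p = 0.0585), without KO XX replicate 1 (adjusted p = 0.0624) and without KO XX replicate 3 (adjusted p = 0.0511). Without WT XY replicate 1 the XY difference passed instead (-0.41 ± 0.11, adjusted p = 0.0493). The KO effect on Cyp17a1 did not differ detectably between the sexes (XY minus XX 0.16 ± 0.16, 95% interval -0.19 to 0.50, adjusted p = 0.847).

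Mc2r encodes the ACTH receptor, which reaches the cell surface only with the accessory protein encoded by Mrap. It was the 1 member that rose. On 1422926_at the WT XY arrays read 7.54, 7.51 and 7.85 and the KO XY arrays 8.65, 8.42 and 9.49. The WT XX arrays read 7.36, 8.30 and 8.47 and the KO XX arrays 9.32, 9.32 and 9.26. Within each sex KO lay above WT without overlap, while across the sexes WT XX replicate 3 exceeded KO XY replicate 2. Mc2r was 2.33-fold higher in KO XY (1.22 ± 0.27, adjusted p = 0.00918) and 2.39-fold higher in KO XX (1.26 ± 0.27, adjusted p = 0.00787).

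Without WT XX replicate 1, in which Mc2r was lowest of all arrays, the XX difference was 0.92 ± 0.23 (adjusted p = 0.0218). With the Gapdh measure as a covariate the XY difference was 0.69 ± 0.35 and did not pass (adjusted p = 0.498), whereas the XX difference did (1.43 ± 0.26, adjusted p = 0.00193). Over both sexes the rise of 1.24 ± 0.19 (adjusted p = 0.000324) passed with that covariate as well (1.06 ± 0.19, adjusted p = 0.0015). Mrap itself read 5.03 ± 0.13 in WT XY, 4.88 ± 0.12 in KO XY, 4.94 ± 0.30 in WT XX and 4.79 ± 0.10 in KO XX (SD, n = 3) and did not pass (-0.15 ± 0.10, adjusted p = 0.341).

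Few markers of adrenal cortex were measured. Over both sexes 0 of 4 passed in limma at the adjusted threshold and 0 had an unadjusted p under 0.05, where 22.6% of all genes passed: Mrap, the 21-hydroxylase gene Cyp21a1 (-0.11 ± 0.09, adjusted p = 0.446), and the last enzymes of corticoid synthesis, Cyp11b1 (-0.08 ± 0.11, adjusted p = 0.681) and Cyp11b2 (0.05 ± 0.09, adjusted p = 0.740). The mean level of the 4 lay between 4.90 and 5.05 on the WT XY arrays, 4.91 and 5.07 on the KO XY arrays, 4.98 and 5.04 on the WT XX arrays, and 4.81 and 4.93 on the KO XX arrays. In every group the means of Mrap, Cyp11b1 and Cyp11b2 lay below the medians of the arrays over all probe sets (5.88 to 5.94), so little can be read from this count. Akr1b7 and Ren1, the other listed markers, had no single-gene probe set here.

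Akr1cl, a member of the aldo-keto reductase family, changed most. On 1423381_at the WT XY arrays read 11.59, 11.39 and 11.23 and the KO XY arrays 5.92, 5.97 and 5.97. The WT XX arrays read 11.52, 10.64 and 10.27 and the KO XX arrays 5.96, 6.07 and 6.5. A gap of more than 3 log2 units parted the lowest WT array from the highest KO array, and the KO values were near or somewhat above the medians of the arrays over all probe sets. Akr1cl was 43.8-fold lower in KO XY (-5.45 ± 0.24, adjusted p = 5.62e-09) and 24.9-fold lower in KO XX (-4.64 ± 0.24, adjusted p = 4.23e-08; -4.28 ± 0.17 without WT XX replicate 1). Of the 34945 probe sets tested, this one had the lowest log2 difference in each sex.

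The second Akr1cl probe set, 1456165_at, fell too. It ranged from 5.05 to 6.25 in WT XY and 3.14 to 3.72 in KO XY, and from 4.82 to 6.06 in WT XX and 3.22 to 3.61 in KO XX, again without overlap. Its differences were -2.23 ± 0.31 in XY (adjusted p = 0.000279) and -1.86 ± 0.31 in XX (adjusted p = 0.00134; -1.46 ± 0.26 without WT XX replicate 1). Both Akr1cl probe sets passed under every alternative in which they were tested, the Gapdh covariate included (-4.77 ± 0.25 and -1.65 ± 0.41 in XY, adjusted p = 3.9e-07 and 0.0466). Of 14 other aldo-keto reductase genes, 1 rose and 2 fell over both sexes, which is near the 22.6% of all genes that passed, with a median of -0.05 beside -0.01 over all genes. Akr1b8 fell by 0.79 ± 0.11 on the log2 scale (adjusted p = 0.000114), Akr1c18, a progesterone-metabolising enzyme gene, fell by 0.48 ± 0.08 (adjusted p = 0.000718), and Akr1c14 rose by 1.01 ± 0.16 (adjusted p = 0.000424). These 3 differences were each smaller in size than that of Akr1cl, a comparison that was not tested.

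**Figure D2:**
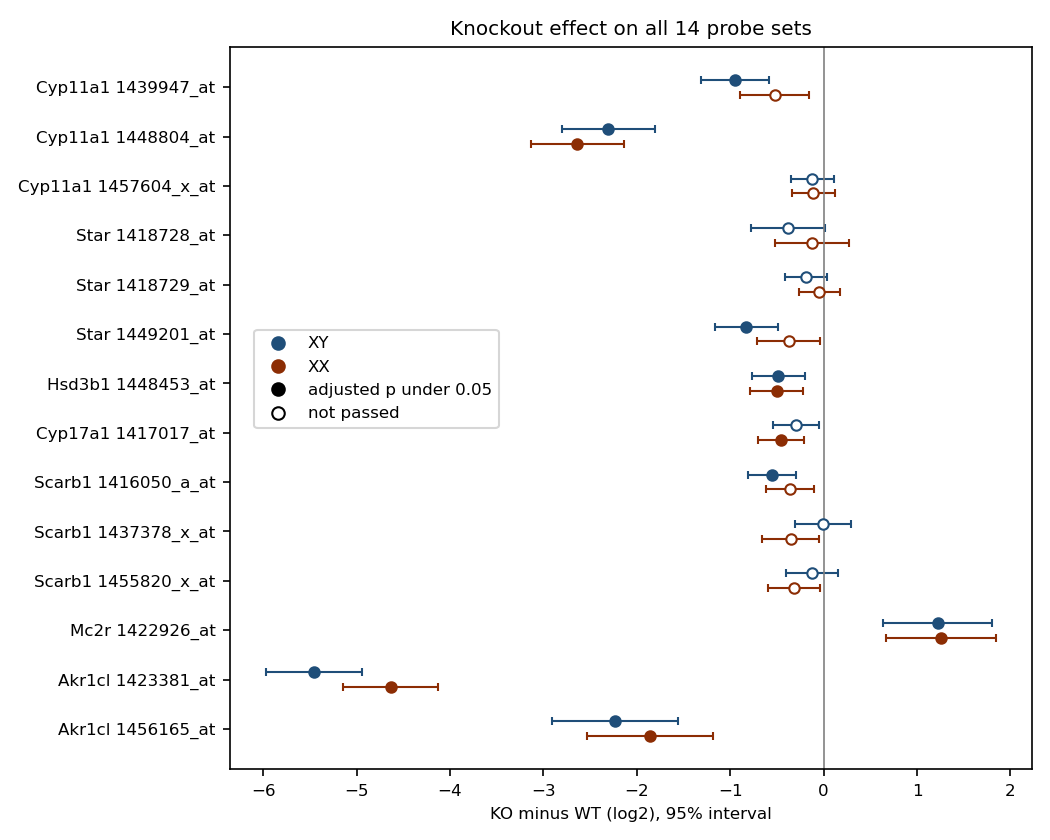
KO minus WT log2 difference for all 14 probe sets, in XY (blue) and XX (brown), with 95% intervals from the fit to all 12 arrays; filled points passed at an adjusted p under 0.05. Akr1cl 1423381_at lies at -5.45 and -4.64 and Cyp11a1 1448804_at at -2.30 and -2.64, Mc2r alone lies to the right at 1.22 and 1.26, and probe sets of Cyp11a1, Star and Scarb1 differ from each other.

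Counted by probe set, 1 of 14 rose and 7 fell in XY, where 10.9% of all probe sets passed (5.13% higher and 5.76% lower), and 1 rose and 5 fell in XX, where 11% did (6.66% higher and 4.38% lower). Over both sexes 1 rose and 8 fell, against 20.3% of all probe sets (11.2% higher and 9.16% lower). KO and WT arrays did not overlap for 10 of the 14 probe sets in XY, 12 in XX and 8 when the sexes were joined, while 33.6%, 24.9% and 9.39% of all probe sets were parted in that way. All 7 genes had a probe set that passed over both sexes, 6 had one in XY and 5 in XX, but a gene with several probe sets has more chances to do so. The share of all genes with any probe set passing was not counted, so these counts are no result about the members.

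The sexes were then compared for the same genes, since steroidogenic genes later become active in the fetal testis before the ovary. In WT, 0 of the 14 probe sets passed in limma, with 4 at an unadjusted p under 0.05, and 0.0572% of all probe sets passed. Akr1cl 1423381_at was 0.59 ± 0.24 higher in WT XY than in WT XX (95% interval 0.08 to 1.10, adjusted p = 0.516), Cyp11a1 1448804_at differed by -0.07 ± 0.23 (-0.57 to 0.43, adjusted p = 0.958) and Mc2r by -0.41 ± 0.27 (-1.0 to 0.17, adjusted p = 0.646). Scarb1 1455820_x_at differed by -0.31 ± 0.13 (adjusted p = 0.516). These intervals leave room for differences of up to about 1 log2 unit.

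WT XX replicate 1 bore on this comparison. In WT XX it held the highest Akr1cl and Cyp11a1 levels and the lowest Mc2r level of the 3 arrays, as the WT XY arrays did beside the other WT XX arrays for Akr1cl and Mc2r. Without it, Akr1cl was 0.95 ± 0.17 higher in WT XY (adjusted p = 0.00511) and Scarb1 1455820_x_at differed by -0.47 ± 0.11 (adjusted p = 0.0255), and both passed. Mc2r then differed by -0.75 ± 0.23 (adjusted p = 0.0662) and Cyp11a1 by 0.21 ± 0.20 (adjusted p = 0.618), and neither passed. The number of probe sets that passed over the whole array went from 20 to 2430 when that array was left out, so the 2 members were among many.

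**Figure D3:**
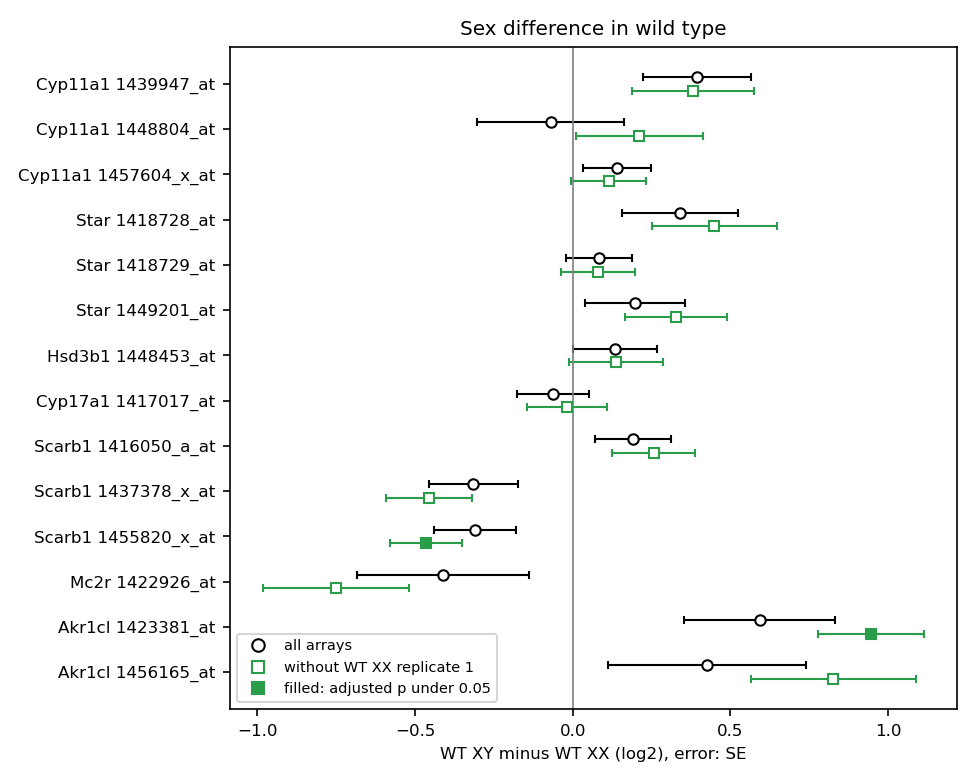
WT XY minus WT XX log2 difference ± SE for the 14 probe sets, with all arrays (black circles) and without WT XX replicate 1 (green squares); filled symbols passed at an adjusted p under 0.05. None of the black circles is filled, and without that array Akr1cl 1423381_at lies at 0.95 and Scarb1 1455820_x_at at -0.47.

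In the knockout, 0 of 14 probe sets passed between XY and XX in limma, with 0 at an unadjusted p under 0.05, where 0.0286% of all probe sets passed. The difference of the KO effect between the sexes passed for 0 of 14, with 1 at an unadjusted p under 0.05, where 0.00858% of all probe sets passed. That 1 was Akr1cl 1423381_at, whose KO difference in XY minus that in XX was -0.82 ± 0.34 (95% interval -1.54 to -0.09, adjusted p = 0.750). It was -1.17 ± 0.23 without WT XX replicate 1 (adjusted p = 0.0929) and 0.09 ± 0.35 with the Gapdh covariate (adjusted p = 0.981), so that its sign depended on the covariate and it passed in neither case. For Mc2r the KO effect differed by -0.03 ± 0.39 (-0.86 to 0.79, adjusted p = 0.988) and for Cyp11a1 1448804_at by 0.33 ± 0.33 (-0.37 to 1.04, adjusted p = 0.842). Without WT XX replicate 1 these were 0.31 ± 0.31 (adjusted p = 0.689) and 0.05 ± 0.27 (adjusted p = 0.950), and with the Gapdh covariate -0.74 ± 0.48 (adjusted p = 0.813) and 0.90 ± 0.42 (adjusted p = 0.755). Calls that passed in 1 sex and not in the other, as for Cyp17a1 and Star, are thus not shown to differ between the sexes.

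The genes that supply the pathway were described from lists, given for KO against WT over both sexes, a comparison in which 22.6% of all genes passed (12.9% higher and 9.72% lower). Of 10 genes of cholesterol uptake and handling, 2 rose and 1 fell, with a median of -0.05, a count near that of all genes and no result about the list. Abca1, which exports cholesterol from cells, rose by 0.79 ± 0.11 (adjusted p = 8.64e-05) and Npc2, which moves it out of lysosomes, rose by 0.37 ± 0.09 (adjusted p = 0.00988), while Tspo, encoding an outer mitochondrial membrane protein, fell by 0.83 ± 0.14 (adjusted p = 0.000556). Of 19 genes of cholesterol synthesis, 0 rose and 8 fell, with a median of -0.26 beside -0.01 over all genes. The count was 5 without KO XY replicate 2. The isomerase gene Idi1 fell by 1.34 ± 0.09 (adjusted p = 1e-07) and the sterol oxidase gene Msmo1 by 0.99 ± 0.18 (adjusted p = 0.00118). In XY 7 of the 19 fell and in XX 1, Idi1, did, where 6.33% and 4.96% of all genes were lower. Tested gene by gene in limma, the difference of the KO effect between the sexes passed for 0 of the 19, with 2 at an unadjusted p under 0.05. The 2 counts are thus not shown to differ between the sexes, and the list as a whole was not tested.

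Of 13 other steroid enzymes and their electron carriers, 1 rose and 3 fell over both sexes, with a median of -0.11, beside the same 22.6% of all genes and again near it. Cyb5a, the cytochrome that aids Cyp17a1 in androgen synthesis, fell by 0.55 ± 0.10 (adjusted p = 0.00106), and Hsd11b2, which inactivates glucocorticoids, rose by 0.60 ± 0.11 (adjusted p = 0.000916). Ferredoxin gene Fdx1, the electron donor of Cyp11a1, did not pass (-0.11 ± 0.10, adjusted p = 0.475). Of 10 genes of trophic hormone receptors and the cyclic AMP response through which ACTH acts, 2 rose (Nr4a2 and Creb1) and 3 fell. Their median was -0.13 beside -0.01 over all genes. The related nuclear receptor genes Nr4a2 and Nr4a1 moved in opposite directions, by 0.79 ± 0.11 (adjusted p = 0.000128) and -0.75 ± 0.11 (adjusted p = 0.000154). Prkar2b and Prkar1a, which encode regulatory subunits of protein kinase A, fell by 0.44 ± 0.08 (adjusted p = 0.0013) and 0.47 ± 0.10 (adjusted p = 0.00454).

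**Figure D4:**
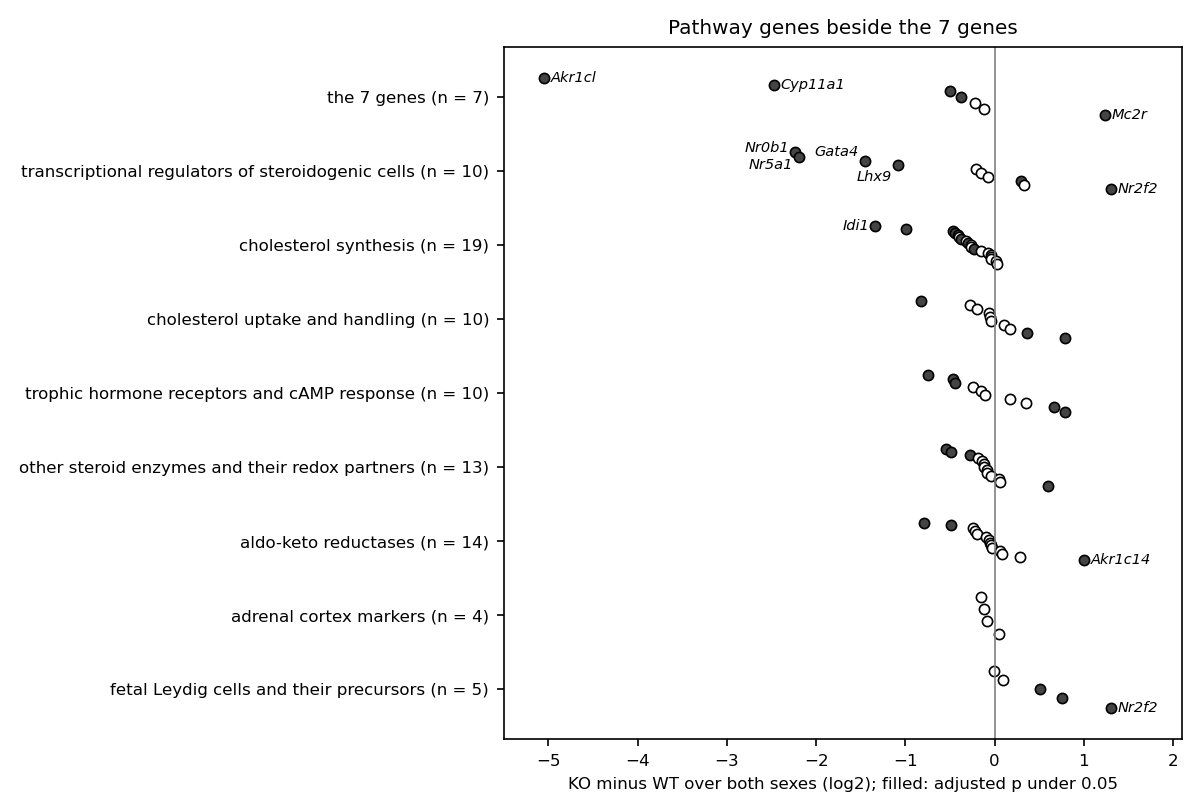
KO minus WT log2 difference over both sexes for the 7 genes (brightest probe set) and for the measured genes of 8 lists, each point a gene; filled points passed at an adjusted p under 0.05, names mark genes past 1 log2 unit, and genes are spread vertically in order of their difference. Akr1cl at -5.04 lies beyond every listed gene, 8 of 19 cholesterol synthesis genes are filled and lie left of 0, and none of the 4 adrenal cortex markers is filled.

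Among 10 transcriptional regulators of steroidogenic cells, 4 fell and 2 rose over both sexes, beside 9.72% of all genes lower and 12.9% higher, with a median of -0.18. Nr5a1 was at 10.19 ± 0.15 in WT XY, 7.84 ± 0.14 in KO XY, 10.01 ± 0.25 in WT XX and 7.97 ± 0.31 in KO XX (SD, n = 3), and fell by 2.19 ± 0.12 on the log2 scale (adjusted p = 1.17e-08). Nr0b1, which encodes the corepressor DAX1, fell by 2.24 ± 0.18 (adjusted p = 6.02e-07), and Lhx9 fell by 1.08 ± 0.12 (adjusted p = 1.55e-05). Gata4 fell by 1.45 ± 0.12 (adjusted p = 6.09e-07), and staining for its protein had guided the capture of the cells. Nr2f2, known from steroidogenic precursors and interstitial cells, rose by 1.30 ± 0.14 (adjusted p = 1.38e-05). Of 5 measured markers of fetal Leydig cells and their precursors, 3 rose (Nr2f2, Pdgfra and Tcf21) and 0 fell, while the Leydig hormone gene Insl3 was not measured by a single-gene probe set.

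Across the 12 arrays the levels of the members followed that of Nr5a1 to different degrees. Pearson's r with Nr5a1 was 0.994 for Akr1cl, 0.965 for Cyp11a1, 0.865 for Hsd3b1, 0.855 for Cyp17a1, -0.846 for Mc2r, 0.620 for Star and 0.480 for Scarb1. Akr1cl and Cyp11a1 had r = 0.976 with each other, and r = 0.732 after the group means were subtracted, whereas Mc2r and Akr1cl had r = -0.874 and -0.669. The 12 points share the difference between KO and WT and, within a group, the position of WT XX replicate 1, so these values describe the arrays and carry no test. The 3 genes most like Akr1cl in level over the 12 arrays were Pnliprp2 (r = 0.997), Pank1 (0.995) and Nr5a1 (0.994), those most like Cyp11a1 were Sphkap (0.984), Rec8 (0.983) and Ccdc61 (0.982), and those most like Mc2r were Pmp22 (0.949), Dnm1 (0.948) and Flrt3 (0.948), among 3407 genes that spanned at least 1 log2 unit. The other 4 members spanned less than that and were left out of this search for like genes.

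**Figure D5:**
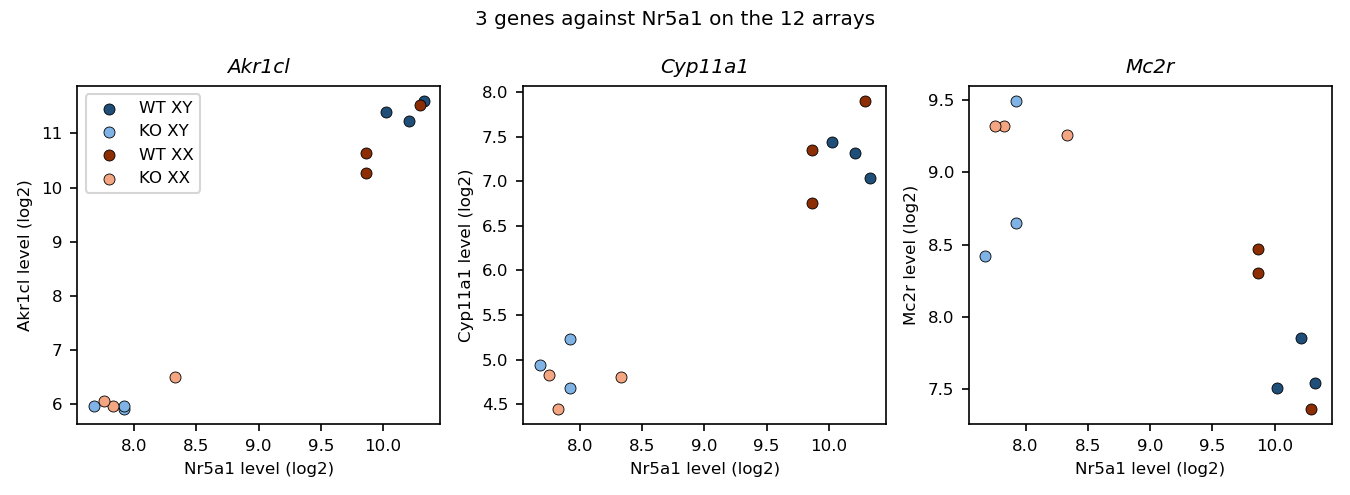
Log2 level of Akr1cl, Cyp11a1 and Mc2r against the log2 level of Nr5a1 on the 12 arrays (brightest probe sets), coloured by group; each point is 1 array. The points fall into a WT cloud with Nr5a1 above 9.8 and a KO cloud with Nr5a1 below 8.4, and WT XX replicate 1 lies close to the WT XY arrays for Akr1cl and Mc2r.

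Markers of other cell types are given beside these changes, against the 22.6% of all genes that passed over both sexes. Of 10 endothelial markers 8 fell and 0 rose over both sexes, and their mean level lay between 7.62 and 7.73 in WT XY, 6.32 and 7.0 in KO XY, 7.47 and 7.69 in WT XX, and 6.49 and 7.32 in KO XX. Of 9 coelomic epithelium markers 5 rose and 1 fell (8.09 to 8.23 in WT XY, 8.75 to 8.76 in KO XY, 8.0 to 8.04 in WT XX, 8.74 to 8.98 in KO XX). Of 10 macrophage markers 4 rose and 0 fell (6.5 to 6.75, 7.03 to 7.09, 6.41 to 6.67 and 6.80 to 7.43 in the same order), and of 10 germ cell markers 5 rose and 0 fell (7.97 to 8.33, 8.25 to 8.50, 7.82 to 8.08 and 8.26 to 8.42); the 5 became 3 without KO XX replicate 1 or 2, KO XY replicate 1 or 2, or WT XY replicate 1 or 3. Of 6 mesonephros markers 1 rose and 1 fell (5.68 to 5.79, 5.09 to 5.27, 5.4 to 5.58 and 5.06 to 5.53).

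Of 6 gonadal ridge markers 1 rose (Tcf21) and 3 fell (Gata4, Lhx9 and Nr5a1). These genes were already counted in the lists of regulators and of Leydig precursors, so this is no separate result. The mean levels of the 6 were 10.94 to 10.97 in WT XY, 10.03 to 10.22 in KO XY, 10.68 to 10.95 in WT XX and 9.96 to 10.42 in KO XX. Of 8 chromaffin and neural crest markers, which would mark adrenal medulla, 1 rose (Hand2, 1.0 ± 0.18, adjusted p = 0.0012) and 0 fell (5.67 to 5.89, 5.79 to 6.11, 5.77 to 5.96 and 5.80 to 5.91 in the same order). Of 7 erythroid markers 0 passed in limma, with 1 at an unadjusted p under 0.05 (9.94 to 10.08, 9.49 to 10.01, 9.91 to 9.97 and 9.70 to 10.31). No marker was at 0, which the log2 scale of these arrays does not reach. The part of these cell types in the changes of Akr1cl, Cyp11a1 and Mc2r was not tested.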

How the data were processed

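Biotin-labelled, 2-cycle amplified RNA (15 ng per pool) was hybridised to Affymetrix mouse arrays, per the labels' protocols. The deposited values are log2 levels made by the authors, with RMA among the tools (Affymetrix Expression Console and affy are the others) that the submitters' processing notes list without versions. RMA compresses differences between dim probe sets. Values ran from 2.4 to 15 and were used as given; for arrays, their number limits the precision.

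Of 45101 probe sets, 64 were controls, 932 belonged to several genes and 9160 to none, by the platform annotation. The other 34945 were fitted with limma 3.58.1 in R 4.3.3 (lmFit and eBayes, 4 group means, 8 residual degrees of freedom, two-sided), adjusted by Benjamini-Hochberg within each of the contrasts, with a threshold of 0.05. Log2 differences are ± SE, levels ± SD. The steps were tested on simulated data. Single array measures were compared by exact permutation tests.

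Members and lists were chosen with earlier results of these data known. Named besides the members are up to 5 genes per list with the smallest p, Nr5a1, Nr0b1, Gata4, Cbx2, Xist and Eif2s3y, and 3 genes most like each member. Fdx1, Insl3, Akr1b7, Ren1, Hsd3b2 and Hsd3b3 were named after their values were seen. Alternatives covered normalization, a low-value filter, the choice of probe sets, array weights, the variance prior, the groups fitted, a replicate block, the threshold, the Gapdh covariate and leaving out each array. Raw scans were not used here.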

Additional observations from a re-analysis of the deposited data

How the results depend on the processing

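Over 84 comparisons of a member probe set and 1862 alternative values, 1820 kept their side of the threshold, 21 lost it and 21 gained it; no called difference turned its sign, and 52 uncalled ones did. Of the 7 genes, 4 passed in XY, and 5 each in XX and across both sexes. It was 2 in each of these with the filter on low values, which left only 4 of the 7 to be tested and dropped Cyp11a1, Hsd3b1 and Cyp17a1. It was 2 in XY with the Gapdh covariate, and in XX it was 3 with only the groups compared and 3 at a threshold of 0.01. Leaving out 1 array gave 3 to 4 genes in XY, 3 to 5 in XX, 5 to 6 over both sexes, 0 to 2 between the sexes in WT, and 0 between the sexes in KO and for the difference of the KO effect.

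The count of all probe sets that passed in XY was 3804. It was 2421 with the brightest probe set per gene, 2257 with the mean of a gene's probe sets (both test fewer features), 6775 with array weights, 5924 with only the groups compared, 1047 with the Gapdh covariate, 1978 at 0.01 and 2424 to 5315 without 1 array. In XX it was 3858, and 2493, 2340, 2279 (only the groups compared), 1922 (0.01) and 2831 to 3772 (without 1 array). Over both sexes it was 7099, and 4326, 3985, 4184 (0.01) and 5643 to 7189. Between the sexes in WT it was 20, and 8 (low-value filter), 11 (brightest), 10 (mean), 408 (array weights), 13 (only the groups compared), 13 (0.01) and 14 to 2430, the last without WT XX replicate 1. In KO it was 10, and 6 (filter), 6 (brightest), 5 (mean), 17 (all non-control probe sets), 16 (Gapdh covariate) and 9 to 20. For the difference of the KO effect it was 3, and 1 (brightest), 1 (mean), 0 (Gapdh covariate) and 3 to 9. Where no reason is given, the cause was not tested. Without detection calls, the distance from background is unknown for dim members such as Hsd3b1, Cyp17a1 and, in KO, Cyp11a1.

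Same-numbered arrays did not pair: their deviations correlated at -0.185 to 0.243 over 18 pairs of arrays, and other pairs at -0.284 to 0.265. With the replicate block 4 of the 7 genes passed in XY, 5 in XX and 5 across both, with 3997, 3914 and 7253 probe sets in all; the block brought Cyp11a1 1439947_at past the threshold in XX (adjusted p = 0.0386). With array weights Cyp17a1 passed in XY (adjusted p = 0.0235) and not in XX (0.0509); with only the groups compared the XX calls of Cyp17a1 (0.059) and Hsd3b1 (0.104) were lost. By the mean of its probe sets Star also passed over both sexes (0.0146) and Scarb1 in XX (0.0296) and over both sexes (0.00736); Scarb1 1455820_x_at passed over both sexes with repeated quantile normalization (0.0291) and array weights (0.0324). The list of cholesterol uptake and handling had 5 passing genes in place of 3 with repeated quantile normalization and by gene means; cholesterol synthesis had 5 in place of 8 at 0.01 and without KO XY replicate 2; aldo-keto reductases had 1 and mesonephros 1 with the filter; germ cell markers had 3 with repeated quantile normalization, 2 by gene means and 1 at 0.01.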

Other observations

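The chromosomal neighbours of the 7 genes, up to 2 measured genes on each side in the RefSeq order, were looked at after the members' results were known. Of 28 such genes, 2 were higher and 3 lower in KO over both sexes, beside 22.6% of all genes that passed. Sema7a, which encodes a membrane-anchored semaphorin and lies next to Cyp11a1, fell by 2.04 ± 0.20 on the log2 scale (adjusted p = 4.2e-06), while Ccdc33 on the other side did not pass (-0.14 ± 0.09, adjusted p = 0.325). Near Cyp17a1, the arsenic methyltransferase gene As3mt fell by 0.45 ± 0.10 (adjusted p = 0.0043). The 4 neighbours of Akr1cl, among them Fzd5 (0.04 ± 0.18, adjusted p = 0.909) and the lens crystallin gene Crygd (0.08 ± 0.08, adjusted p = 0.587), did not pass.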
